A study of Mus musculus with 15 samples.

Results

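Microglia that switch on an Igf1 reporter were compared with reporter-negative microglia of the same sort, 14 days after an ischemic stroke. The comparison is defined by the labels alone: 1 EGFP-positive and 1 EGFP-negative library from Igf1-Egfp mice, 2 of the 15 libraries of the series, read over all 24421 genes of their table. The cells came from forebrain of Igf1-Egfp transgenic mice whose middle cerebral artery had been occluded for 60 minutes and then reperfused. They were sorted for intermediate CD45 and CD11b and divided by EGFP, and the stain also held CD31, a marker of endothelium. The labels describe the operated mice as males of 8 to 24 weeks, and do not say how many mice went into a library or which cells of the transgene's carriers, other than the sorted ones, express EGFP. The EGFP coding sequence is not among the genes of the table. Day 6 libraries of the same reporter (1 EGFP-positive, 1 EGFP-negative) are set beside the day 14 values. For Igf1, Vwf and Tek the level in 1 library of wild-type microglia, day 14 after occlusion, is given as well. Libraries of Yy1flox/flox mice and of Cx3cr1-CreER;Yy1flox/flox mice on day 6 after the same occlusion, 3 each, give the only spread between replicates in the series.

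Igf1 encodes insulin-like growth factor 1, a secreted hormone that acts through the receptor tyrosine kinase Igf1r and the PI3K-Akt pathway and is tempered by Igf-binding proteins. In brain it supports neurons and oligodendrocytes, and microglia and macrophages are a source of it after injury. Microglia that meet damaged myelin or dying cells are known to take on a state called disease-associated, in which genes of lipid handling, lysosomes and phagocytosis (Apoe, Lpl, Gpnmb, Cst7, Axl, Itgax) are high while genes of surveying, homeostatic microglia (P2ry12, Tmem119, Cx3cr1) are low.

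Both libraries went against the labelled sex. Xist, the RNA that silences an X chromosome in female cells, had 1937 counts in the EGFP-negative and 1843 in the EGFP-positive library. The 4 Y-linked genes Ddx3y, Eif2s3y, Kdm5d and Uty had 0 counts in both. In the other 13 libraries of the series Xist had at most 22 counts, and the same Y-linked genes summed to between 287 and 608 CPM (counts per 1e6 counts). Both reporter states of day 14 share this pattern, so it does not separate them, but it separates them from the day 6 reporter libraries, in which Xist had 0 counts. The part of this difference in any contrast between the days was not tested.

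The EGFP-negative library held 24.6 M counts (M, 1e6) over 10892 genes and the EGFP-positive library 23.1 M over 12498 genes. Counts of 1 to 20 were even in 69.3% and 68.7% of cases, a pattern seen where both mates of a fragment are counted, and counting intervals were therefore also computed on halved counts. The EGFP-negative library lacked 91 genes that stood at 20 CPM or more in the other, and the EGFP-positive library lacked 1. All ratios below are log2 ratios of scaled CPM plus 1 CPM, EGFP-positive over EGFP-negative, which understate the change of low genes. With 1 library per state there is no test and no p-value, and intervals (exact, 95%) cover counting error only. A gene is called past the size rule at a log2 ratio of at least 1 in either direction with at least 20 CPM in 1 library. A gene that reaches 20 CPM in 1 library alone passed the level filter only through the library where it is higher. Counts of listed genes therefore describe the libraries, and the same counts from 100 CPM on are given beside several of them. Bulk values cannot tell fewer cells of a type from less RNA per cell.

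By this rule 795 of 7085 genes were higher in EGFP-positive cells (11.2%) and 772 lower (10.9%). The share depended on level. From 20 to 50 CPM 30.4% of genes were past the rule. Between replicates of the Yy1flox/flox group 7.74% to 9.93% of genes of that level were past it, and between replicates of the Cx3cr1-CreER;Yy1flox/flox group 26.0% to 33.4%. From 100 to 300 CPM the share was 13%, against 2.61% to 4.79% between the Cx3cr1-CreER;Yy1flox/flox replicates. From 300 to 1000 CPM it was 6.44%, against at most 0.198%. The Yy1flox/flox replicates differed less, in 0.170% to 0.468% of genes with at least 100 CPM. These replicates come from another table, day and sequencer, so they are a yardstick and not the error of the reporter libraries. Of the 2154 genes with at least 100 CPM, 109 were higher (5.06%) and 133 lower (6.17%), and of the 539 with at least 300 CPM, 15 were higher (2.78%) and 17 lower (3.15%). Counts over genes below 100 CPM are therefore read with caution, and the accounts that follow lead with genes of higher level. Each list count below is to be read against the share of all genes given here for the same level.

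**Figure D1:**
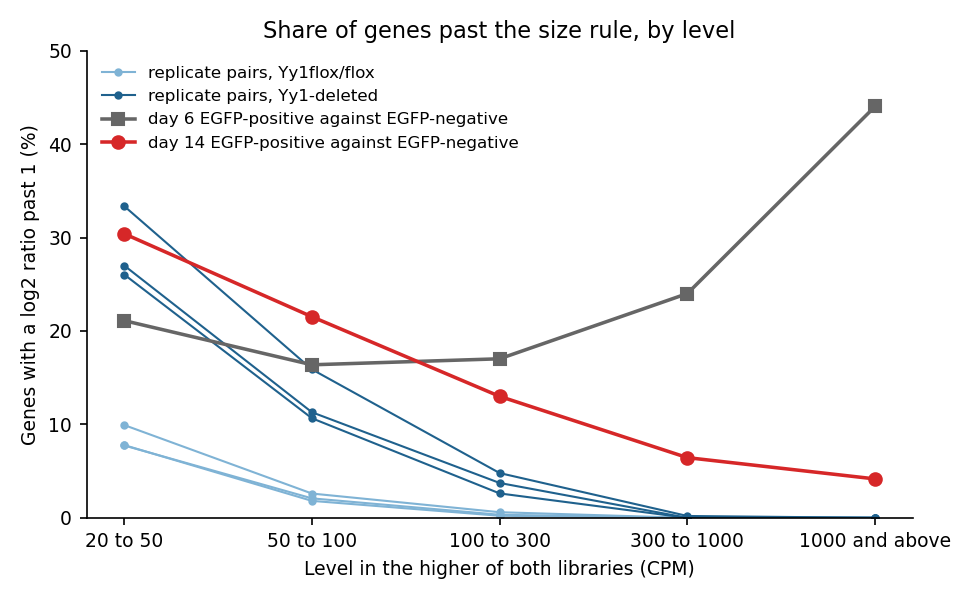
Share of genes with an absolute log2 ratio of at least 1 (vertical axis, %) by level in the higher of both libraries (horizontal axis, CPM), for the day 14 and day 6 reporter comparisons and for each pair of replicates within the Yy1flox/flox and the Cx3cr1-CreER;Yy1flox/flox (Yy1-deleted) groups. The day 14 share falls from 30.4% to 4.17%, inside the range of the Yy1-deleted replicates at 20 to 50 CPM and above every replicate pair from 50 CPM on.

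Igf1 itself was low in both libraries, and higher in the EGFP-positive one. Igf1 (GRCm38 chromosome 10, 87858265 to 87937042) had 282 counts, 11.1 CPM, in EGFP-negative and 745 counts, 33.5 CPM, in EGFP-positive cells. The fold was 3.02 (counting interval 2.63 to 3.48, and 2.48 to 3.69 on halved counts), a log2 ratio of 1.51. The direction is that of the reporter, and the level lies in the band of 20 to 50 CPM described above. On day 6 the same gene stood at 49.5 and 813 CPM, a log2 ratio of 4.01, in libraries scaled in another table. In the wild-type library of day 14, scaled in that other table too, Igf1 stood at 176 CPM, above both reporter libraries of that day. The difference between the tables was not tested.

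No other gene of the IGF axis was past the rule. Of its 27 genes 9 had at least 20 CPM, 1 was higher (Igf1) and 0 lower, and the median log2 ratio was -0.43, against 0.03 over all named genes of that level. The receptor gene Igf1r stood at 10.1 CPM in EGFP-negative and 5.88 CPM in EGFP-positive cells, below the level filter. The insulin receptor gene Insr (-0.41), the adaptor gene Irs2 (-0.62), and the kinase gene Akt1 (-0.63) had ratios below 0. Igfbp4, which encodes a binding protein that sequesters Igf1, stood at 51.0 and 37.0 CPM. Among the 9 members with at least 20 CPM, the regulatory PI3K subunit gene Pik3r1 was the other one above 0, at 0.20. Below that level ratios lay on both sides of 0, with Igf1r below it and Pik3ca (6.36 and 15.4 CPM) above it.

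Some genes of disease-associated microglia were higher in EGFP-positive cells. Apoe, which encodes the main lipid carrier of the brain (chromosome 7, 19696109 to 19699188), stood at 7564 CPM in EGFP-negative and 22665 CPM in EGFP-positive cells, a log2 ratio of 1.58. Axl, a receptor kinase that recognises dying cells through Gas6, stood at 259 and 740 CPM (fold 2.85, counting interval 2.77 to 2.94). Cst7, the cysteine protease inhibitor cystatin F, stood at 148 and 491 CPM (fold 3.31, 3.19 to 3.44). Between replicates of the Yy1 groups at most 3.66% of genes with 100 CPM or more were past the rule.

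Of 30 listed disease-associated genes 29 had at least 20 CPM, of which 13 were past the rule higher and 1 lower, and 28 had a ratio above 0. Their median log2 ratio was 0.88. Among the 24 with at least 100 CPM, 10 were higher and 1 lower. Csf1, a growth factor that maintains microglia, stood at 81.0 and 299 CPM, and Gpnmb, a glycoprotein of lipid-laden macrophages, at 27.6 and 102 CPM. Lpl, which releases fatty acids from lipoproteins, stood at 88.0 and 284 CPM. The glycoprotein gene Cd52 had a log2 ratio of 1.55, the beta-glucan receptor gene Clec7a 1.48 and the chemokine gene Ccl6 1.37. Itgax, which encodes the integrin CD11c, had the highest ratio of the list at 2.62, from 9.81 to 65.6 CPM. The most abundant member, the lysosomal protease gene Ctsd, stood at 31353 and 56426 CPM and stayed under the rule at 0.85, as did Ctsb (0.95) and Spp1 (0.88), which encodes osteopontin. Among members with more than 1000 CPM in either library, Apoe alone was past it.

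Receptor genes of the list were split, with Axl and Clec7a past the rule and Trem2 under it. Trem2, the lipid-sensing receptor on which the state depends, stood at 1690 CPM in EGFP-negative and 1729 CPM in EGFP-positive cells, a log2 ratio of 0.03. Its adaptor gene Tyrobp had a ratio of 0.51. The member past the rule in the lower direction was Timp2, an inhibitor of matrix metalloproteinases, at 127 and 42.9 CPM (log2 ratio -1.54).

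**Figure D2:**
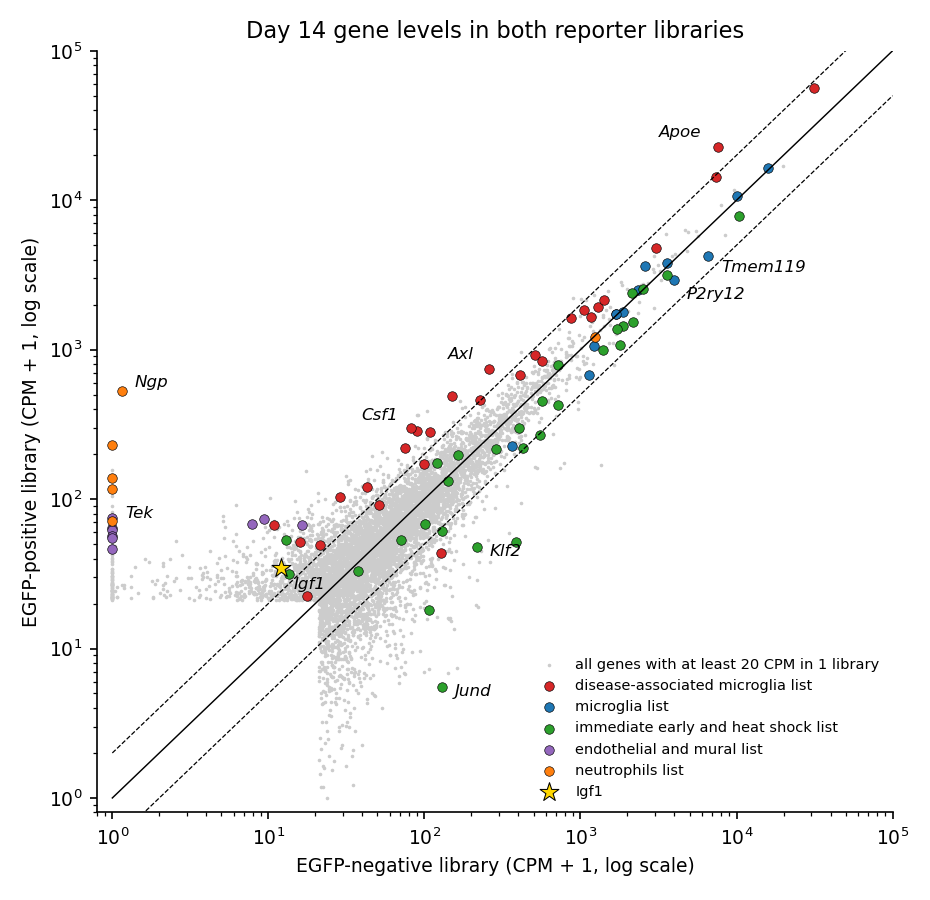
Level of every gene with at least 20 CPM in 1 library (grey), in the EGFP-negative (horizontal) and EGFP-positive library (vertical), both as CPM plus 1 on log axes. Coloured points are listed genes and the star is Igf1; the solid line marks equal levels and the dashed lines a 2-fold difference. Apoe, Axl and Csf1 lie above the upper dashed line, Klf2 and Jund below the lower one, and neutrophil and endothelial genes line the left edge.

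Genes of homeostatic microglia were mostly under the size rule. Of the 25 listed, all with at least 20 CPM, 1 was past the rule higher and 1 lower, and the median log2 ratio was -0.07. The higher one was Gpr165, an orphan receptor gene, at 1.72. Cx3cr1, the fractalkine receptor gene, stood at 3603 CPM in EGFP-negative and 3793 CPM in EGFP-positive cells. Csf1r, the receptor on which microglia depend for survival, had a ratio of 0.05. Tmem119 (6593 and 4259 CPM, log2 ratio -0.63), the fructose transporter gene Slc2a5 (-0.76), Sall1, a transcription factor gene of microglial identity (-0.70), Selplg (-0.54) and the purinergic receptor gene P2ry12 (-0.44) were lower by less than the rule asks. The member past it in that direction was Crybb1, a crystallin gene of microglia, at 216 and 102 CPM (log2 ratio -1.08). Serpine2, a protease inhibitor gene, was just inside the boundary at 0.99, from 1087 to 2155 CPM.

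Lipid genes past the rule were all higher, while most of those measured were under it. Of 29 listed lipid genes 19 had at least 20 CPM, of which 7 were higher and 0 lower, with a median log2 ratio of 0.58, and 3 of those 7 (Apoe, Lpl and Fabp5) are also on the disease-associated list. Plin2 and Plin3, which coat lipid droplets, stood at 66.2 and 180 CPM and at 17.4 and 64.9 CPM. Scarb1, a receptor for high-density lipoprotein, had a log2 ratio of 1.21. Pltp, which transfers phospholipids between lipoproteins, had 0 counts in EGFP-negative cells and stood at 104 CPM in EGFP-positive cells. Against a floor of 3 fragments (6 counts) the lower bound of its fold was 442, a bound that covers counting error only. The efflux transporter gene Abca1 (0.49), the endocytic receptor gene Lrp1 (0.14), Soat1, which makes cholesterol esters for storage (0.17), and the fatty acid activating gene Acsl1 (0.09) were under the rule. Nr1h2, which encodes the sterol-sensing receptor LXR-beta, was on the other side at -0.91.

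Scavenger and sialic acid receptor genes were in part below the level filter. Of 19 listed, 9 had at least 20 CPM, of which 3 were higher and 0 lower. The 3 were Msr1, Siglec1 and Clec7a, the last given above. Msr1, scavenger receptor A, had 10 counts against 764, at 0.393 and 34.3 CPM. Siglec1, a sialic acid receptor of macrophages and one of the border-macrophage markers, had 0 and 927 counts, 41.6 CPM in EGFP-positive cells. Of 25 listed genes of cholesterol synthesis 16 reached that level, of which 3 were higher and 3 lower, with Cyp51 listed at 0 in EGFP-negative cells and Mvd at 30.7 and 2.25 CPM, and none of these 6 reached 100 CPM.

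Genes for the uptake of dying cells differed singly. Of 24 listed, 19 had at least 20 CPM, of which 4 were higher and 1 lower, with a median of 0.14. From 100 CPM on 1 of 14 was higher and 1 lower. Over all genes 11.2% were higher and 10.9% lower from 20 CPM on, and 5.06% and 6.17% from 100 CPM on. Beside Axl, the higher members were the engulfment gene Dock1, the phosphatidylserine receptor gene Cd300lf (4.28 and 64.1 CPM) and Anxa1, an annexin gene abundant in neutrophils and monocytes, with 0 counts in EGFP-negative cells. Itgav, the integrin subunit that binds Mfge8-coated cells, was lower at 101 and 26.4 CPM. The complement genes C1qa, C1qb and C1qc, whose products tag debris, had log2 ratios of 0.15, 0.22 and 0.02 at 2974 to 9291 CPM.

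Lysosomal genes differed by small amounts. Of 45 listed, 41 had at least 20 CPM, of which 1 was higher and 2 lower, and 32 had a ratio above 0, with a median of 0.36. Grn, which encodes progranulin, stood at 3516 and 5932 CPM (log2 ratio 0.75). Among the lower members was the membrane protein gene Lamp1, at 188 and 92.3 CPM (-1.02). The higher one was Ctse, a cathepsin gene, at 0.824 and 21.1 CPM.

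**Figure D3:**
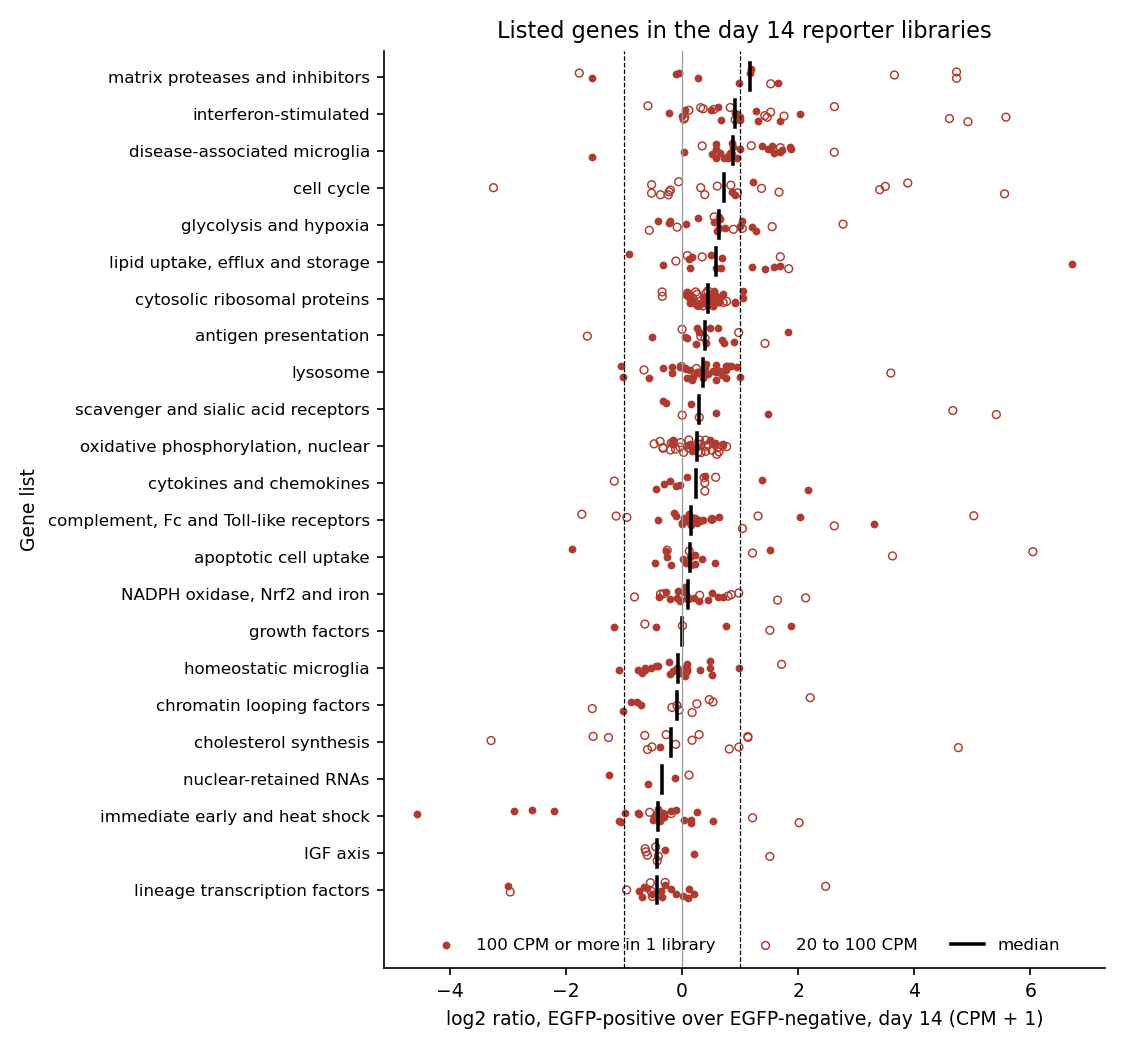
Log2 ratios, EGFP-positive over EGFP-negative on day 14 (horizontal axis, CPM plus 1), for the members of each of 23 gene lists (rows) with at least 20 CPM in 1 library. Filled points have 100 CPM or more, open points less, the black bar is the list's median, and the dashed lines mark a ratio of 1 either way. Interferon-stimulated and disease-associated genes sit mostly right of 0, with medians of 0.91 and 0.88, and lineage transcription factors mostly left of it, with a median of -0.44.

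Interferon-stimulated genes, which are turned on through Stat2 and Irf9 among others when cells sense interferon, were higher in EGFP-positive cells. Of 37 listed, 31 had at least 20 CPM, of which 13 were past the rule higher and 0 lower, and 29 had a ratio above 0. The median log2 ratio was 0.91, and 0.93 among the 14 with at least 100 CPM, of which 5 were past the rule. Irf7, the transcription factor that amplifies interferon production (chromosome 7, 141262706 to 141266481), stood at 102 CPM in EGFP-negative and 253 CPM in EGFP-positive cells. Ifit2, which binds foreign RNA, stood at 31.4 and 132 CPM. Ifitm3, a membrane protein gene that blocks virus entry and shares sequence with its Ifitm neighbours, stood at 50.8 and 165 CPM. The protease gene Usp18, a brake on the receptor, had a ratio of 1.28. The GTPase gene Mx1 stood at 8.79 and 59.4 CPM and Oas2, a sensor of double-stranded RNA, at 9.54 and 34.6 CPM. Rsad2, Oas3 and Oasl1 had 0 counts in EGFP-negative cells and 46.8, 23.4 and 29.4 CPM in the other library. The signal carrier gene Stat2 was under the rule, at 0.05.

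The letters GAAA repeated after a gap of 2 free bases, the core of the element bound by the interferon complex, were searched on both strands from 250 bases before to 50 after the gene start in RefSeq promoters (GRCm38.p6). Of 27025 genes 3.99% held a match, and of the 27 listed interferon-stimulated genes with a promoter in that set 13 did. The match did not follow the reporter ratio, being present in 5 of the 10 members past the rule and in 7 of the 12 not past it that reached 20 CPM. The windows below are shown because they carry the match in members past the rule. Ifitm3, the fifth such member, is left out because its matches lie after the gene start. Each window is 60 bases from before the gene start, 5′ to 3′ on the gene's strand, which is the minus strand for all 4, and capitals mark the match. They lie at chr7:140955973-140956032 for Ifitm2, chr5:120777700-120777759 for Oas3, chr12:26456538-26456597 for Rsad2 and chr8:71537568-71537627 for Bst2.
Ifitm2: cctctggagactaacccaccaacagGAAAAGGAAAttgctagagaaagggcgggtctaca
Oas3: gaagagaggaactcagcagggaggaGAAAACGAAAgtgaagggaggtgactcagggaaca
Rsad2: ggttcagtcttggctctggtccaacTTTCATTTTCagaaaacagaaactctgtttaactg
Bst2: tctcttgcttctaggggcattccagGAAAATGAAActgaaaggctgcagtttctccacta
In Rsad2 the match reads on the opposite strand. In Bst2 a further match overlaps the one in capitals, starting at its last GAAA and running on into the lower case. The reporter ratios of these genes were 1.53 for Ifitm2, 4.61 for Oas3, 5.58 for Rsad2 and 1.00 for Bst2, which is at the boundary of the rule.

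Complement, Fc and Toll-like receptor genes differed singly as well. Of 34 listed, 31 had at least 20 CPM, of which 6 were higher and 2 lower, with a median of 0.16. From 100 CPM on 2 of 23 were higher and 0 lower. The shares of all genes were 11.2% and 10.9% from 20 CPM on, and 5.06% and 6.17% from 100 CPM on. C3, the central complement protein (chromosome 17, 57203970 to 57228136), stood at 9.30 CPM in EGFP-negative and 101 CPM in EGFP-positive cells (fold 10.8, counting interval 9.47 to 12.4). C4b, which joins C1q to C3 and is nearly identical to C4a, so that its reads may be split uncertainly, stood at 88.1 and 362 CPM. Cfb, of the alternative pathway, had 0 counts in EGFP-negative cells and 31.6 CPM in the other. The Fc receptor gene Fcgr4 (1.04) and the bacterial lipopeptide receptor gene Tlr1 (1.31) were higher, and the flagellin receptor gene Tlr5 (-1.73) and C5ar2 (-1.13) lower. Tlr7, the sensor of single-stranded RNA, was under the rule at -0.41.

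Cytokines and antigen presentation had few genes past the rule. Over all genes with at least 20 CPM, 11.2% were higher and 10.9% lower. Of 32 cytokine genes 14 had at least 20 CPM, of which 2 were higher and 1 lower. The chemokine genes Ccl6 and Ccl9 stood at 107 and 278 CPM and at 30.6 and 142 CPM, and Tnf, the inflammatory cytokine, at 87.0 and 38.2 CPM (log2 ratio -1.17). Ccl3 (-0.03), Ccl4 (-0.10) and Il1b (0.39) were under the rule. Of 23 antigen presentation genes 19 had at least 20 CPM, of which 2 were higher, the class II genes H2-Ab1 (44.0 and 158 CPM) and H2-Aa (19.1 and 53.1 CPM), and 1 lower, the costimulator gene Cd80 (-1.63). Their partner Cd74, the class II invariant chain, had a ratio of 0.68. Of the 19 antigen presentation genes 17 had a ratio above 0, and 12 of 13 from 100 CPM on. The median of the 19 was 0.40, against 0.03 over all named genes of that level.

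Growth factors other than Igf1 were Csf1, described above, and Tgfa, a ligand of the EGF receptor, at 104 and 45.4 CPM (log2 ratio -1.17). Of 36 listed growth factors 7 had at least 20 CPM, of which 2 were higher and 1 lower. Matrix proteases and their inhibitors differed in both directions. Adam17, which releases TNF and other ligands, stood at 181 and 411 CPM, and Adam9 at 48.8 and 155 CPM. Mmp14 (1.53), Adam8 (3.66) and Plaur, the urokinase receptor (1.17), were higher too, as were Plat and Timp3, both listed at 0 in EGFP-negative cells. Mmp2, a gelatinase, was lower at 81.3 and 23.2 CPM, as was the inhibitor gene Timp2, given above. Of 28 listed matrix proteases and inhibitors 13 had at least 20 CPM, of which 7 were higher and 2 lower, with a median of 1.17, and from 100 CPM on 3 of 8 were higher and 1 lower.

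Glycolysis and hypoxia genes past the rule were all higher. Of 29 glycolysis and hypoxia genes 22 had at least 20 CPM, of which 7 were higher and 0 lower, with a median of 0.64, and from 100 CPM on 4 of 15 were higher and 0 lower. Pkm, the last kinase of glycolysis, stood at 414 and 959 CPM, Gpi1, an isomerase of the same pathway, at 103 and 251 CPM, and Pgk1 had a ratio of 1.55. Hk1, which phosphorylates glucose, stood at 8.56 and 64.4 CPM. Tpi1 (1.03) and Hif1a, the oxygen-sensing transcription factor gene (1.01), were at the boundary and left the rule with scaling by total counts. Of 40 nuclear genes of oxidative phosphorylation 39 had at least 20 CPM, of which 0 were higher and 0 lower, with a median of 0.26. Cytosolic ribosomal protein genes had a median of 0.45 over the 48 of 54 with at least 20 CPM, with 46 above 0 and 2 past the rule, among them Rpsa (1.05), which scaling by total counts also took out. That scaling shifts the median ratio of all genes by -0.10.

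Cell cycle genes were low in both libraries. Of 42 listed, 22 had at least 20 CPM, of which 7 were higher and 1 lower, and 3 reached 100 CPM. Mki67, a marker of cycling cells, had 12 counts against 386 in the EGFP-positive library, 0.471 and 17.3 CPM. Top2a, the mitotic topoisomerase gene, stood at 7.61 and 26.4 CPM, and Cdk1, the mitotic kinase gene, at 1.49 and 27.2 CPM. Rrm1, a subunit of the enzyme that makes deoxynucleotides, had 1 and 1066 counts (fold 1219, counting interval 218 to 48208). The member of the S phase helicase with the highest level, Mcm3, stood at 47.6 and 113 CPM. Cenpf, a kinetochore gene, was lower at 27.2 and 1.98 CPM.

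Few lineage factor genes were past the rule. Cebpa, a myeloid factor gene, stood at 66.1 and 7.63 CPM (-2.96). Spi1, which encodes PU.1 (-0.34), and Irf8 (0.21), both needed for microglia to form, were under the rule. Of 28 lineage factor genes 22 had at least 20 CPM, of which 1 was higher, Bhlhe40 (10.4 and 62.1 CPM), and 2 were lower. Their median was -0.44, with 17 below 0. From 100 CPM on 0 of 15 were higher and 1 lower. The shares of all genes were 11.2% and 10.9% from 20 CPM on, and 5.06% and 6.17% from 100 CPM on.

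Early response genes split. Jund, an AP-1 subunit gene, stood at 129 and 4.49 CPM (log2 ratio -4.56), Ier5 at 383 and 50.7 CPM (-2.90), Zfp36l2, which promotes mRNA decay, at 106 and 17.0 CPM (-2.58) and Klf2, a factor of quiescence, at 217 and 46.6 CPM (-2.20). Ier3 (-1.09) and Hspa1a (-1.05), a heat shock gene nearly identical to Hspa1b, were lower too. The AP-1 and early growth genes of highest level were under the rule, with Fos at 2145 and 2374 CPM, Egr1 at 2507 and 2553 CPM and Jun at 10376 and 7804 CPM. Of 32 listed, 29 had at least 20 CPM, of which 6 were lower and 2 higher, one of them Nr4a1 (12.1 and 51.8 CPM), and the median was -0.41.

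Base composition moved with part of the lower side. Among genes with at least 100 CPM, the tenth with the highest GC content (57.5% to 67.1% of transcript bases) had 10.5% of genes lower, against 6.17% of all such genes, and a median log2 ratio of -0.13. Of the 8 lower genes of both lists, 4 lie in that GC range: Jund, Klf2, Hspa1a and Cebpa. Ier5 (52.3% GC), Zfp36l2 and Ier3 do not. The part of base composition in these results was not tested.

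Factors of chromatin looping were near or below 100 CPM. Yy1 had 1.41 CPM in EGFP-negative and 1.71 CPM in EGFP-positive cells, too little to compare. Of 19 listed, 13 had at least 20 CPM, of which 1 was higher, the cohesin subunit gene Stag1 (2.21), and 2 were lower, the zinc finger genes Zfp384 (125 and 61.2 CPM, log2 ratio -1.02) and Ctcf (41.9 and 13.7 CPM). Of 4 nuclear-retained RNAs with at least 20 CPM Neat1, the scaffold of paraspeckles, was lower at 177 and 73.6 CPM, and Malat1 stood at 1195 and 801 CPM.

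Among genes of 300 CPM or more that belong to none of the lists above, the following were chosen after their values were seen. Gatm, which makes a creatine precursor, stood at 743 CPM in EGFP-negative and 161 CPM in EGFP-positive cells (chromosome 2, 122594467 to 122611303). Prex1, an activator of the GTPase Rac, stood at 784 and 174 CPM, and Nrip1, a nuclear receptor corepressor gene, at 412 and 92.8 CPM. Higher were the myosin gene Myo1e (103 and 390 CPM), the galectin-binding gene Lgals3bp (898 and 2229 CPM), the amyloid precursor relative Aplp2 (167 and 450 CPM) and Mpeg1, the perforin-like gene of macrophages (1007 and 2195 CPM). The most extreme ratios with at least 10 counts in both libraries ran from Msr1 (4.66), Recql5 (4.61), Ighmbp2 (4.47) and Vim (4.34) to Jund (-4.56), Fbrsl1 (-4.45), Rnf187 (-4.38) and Plekhh3 (-4.27).

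Both libraries carried the markers of microglia at equal sums. The 12 microglia markers summed to 51212 CPM in EGFP-negative and 49626 CPM in EGFP-positive cells, with 0 higher and 0 lower and a median log2 ratio of -0.02. Markers of other cells were uneven. The 16 endothelial and mural markers summed to 30.7 and 563 CPM, and all 9 with at least 20 CPM were higher in the EGFP-positive library. Tek, Cldn5, Esam, Vwf, Ly6c1 and Slco1a4, which mark the lining and barrier of brain vessels, had 0 counts in EGFP-negative cells and 45.6 to 73.7 CPM in EGFP-positive cells. Pecam1, the gene of the stained CD31, stood at 15.4 and 65.8 CPM, and Flt1 at 8.44 and 72.7 CPM. Of these 16 markers 5 had 0 counts in both libraries.

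Neutrophil markers were uneven in the same direction. Of 6 with at least 20 CPM 5 were higher: Ngp (4 and 11732 counts, 527 CPM in EGFP-positive cells), Ltf (0 and 228 CPM), S100a9 (0 and 137 CPM), S100a8 (0 and 115 CPM) and Camp (0 and 70.4 CPM), all granule or cytosolic proteins of neutrophils. The other, Csf3r, is a receptor gene that microglia also express and stood at 1241 and 1223 CPM. It made up most of the list's sum of 1241 CPM in EGFP-negative cells, against 2319 CPM. Monocyte markers summed to 135 and 703 CPM, led by Fn1 (89.6 and 365 CPM), Chil3 (0 and 155 CPM) and Thbs1 (41.2 and 152 CPM), while Ccr2, which defines inflammatory monocytes, stood at 1.81 and 5.21 CPM. Border-macrophage markers summed to 761 and 702 CPM, nearly all of it Stab1, and Mrc1 stood at 0 and 9.34 CPM.

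Markers of fibroblasts and neurons were near 0. T and NK cell markers summed to 7.46 and 21.2 CPM, nearly all Il7r, a cytokine receptor gene past the rule (20.8 CPM in EGFP-positive cells), and Cd3e was at 0 in both libraries. Fibroblast markers summed to 0 and 9.97 CPM and neuron markers to 0.0785 and 1.80 CPM. B cell markers summed to 43.3 and 45.0 CPM, nearly all Cd79b (41.7 and 40.3 CPM). Oligodendrocyte markers summed to 98.4 and 153 CPM, of which the pericyte and precursor gene Cspg4 gave 0 and 37.7 CPM. Astrocyte markers summed to 236 and 198 CPM, mostly the glutamate transporter gene Slc1a3. The part of endothelial, neutrophil and monocyte transcripts in the higher genes was not tested. C3, Anxa1, Rsad2 and Vim were higher in the EGFP-positive library too. So were the interferon-stimulated genes past the rule and most cell cycle genes past it. The microglia marker sums, given above, differed by a smaller ratio than the endothelial, neutrophil and monocyte sums, but by more CPM.

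**Figure D4:**
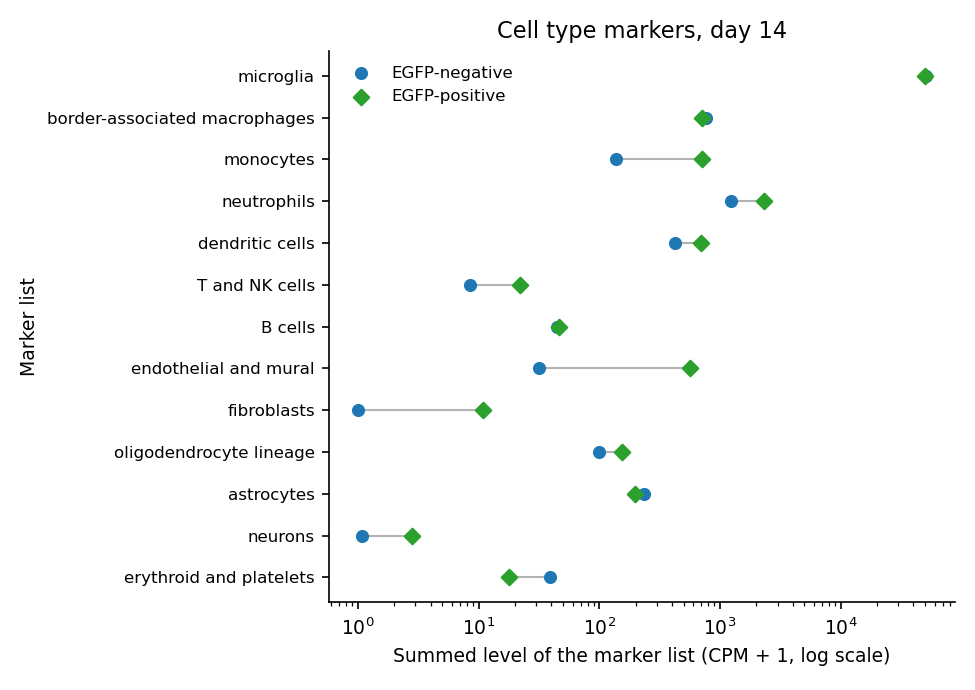
Summed level of each marker list (rows) in the EGFP-negative (circles) and EGFP-positive library (diamonds) on day 14, as CPM plus 1 on a log axis. The microglia sums, 51212 and 49626 CPM, coincide, while the endothelial and mural sum is 30.7 against 563 CPM.

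Day 6 and day 14 are given side by side without a test, since table, sequencer, day and the sex-linked transcripts change together. On day 6, 546 of 7252 genes were higher in EGFP-positive cells (7.53%) and 862 lower (11.9%). Of the disease-associated genes 13 of 30 were higher and 4 lower on day 6, and 13 of 29 higher and 1 lower on day 14. Of the 13 higher on day 14, 5 were higher on day 6 too (Apoe, Gpnmb, Lpl, Lgals3 and Fabp5), 3 were lower (Itgax, Cd52 and Ccl6) and 5 were past the rule in neither direction. Gpnmb had log2 ratios of 4.98 and 1.85, Apoe of 2.52 and 1.58, Plin2 of 1.66 and 1.43, and Adam9 of 1.28 and 1.65. Axl was near 0 on day 6 (298 and 333 CPM, log2 ratio 0.16) and 1.51 on day 14, and Cst7 went from 0.56 to 1.72. Csf1 stood at 189 and 115 CPM on day 6, the opposite order to day 14.

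The median ratios of the interferon-stimulated genes had opposite signs on the days. On day 6, 0 of 34 were higher and 23 lower, with a median of -1.21, against 13 of 31 higher and a median of 0.91 on day 14. Ifitm3 stood at 235 and 29.1 CPM on day 6, Irf7 at 85.6 and 39.0 CPM and C3 at 244 and 54.4 CPM. Neutrophil markers reversed as well, from a sum of 11973 CPM in EGFP-negative and 440 CPM in EGFP-positive cells on day 6. Monocyte markers summed to 5595 and 2794 CPM on day 6. In both tables the library with more neutrophil and monocyte transcripts was also the one in which most interferon-stimulated genes were higher, and the part of one in the other was not tested. Endothelial and mural markers summed to 667 and 508 CPM on day 6, and the day 14 EGFP-negative library, at 30.7 CPM, was the lowest of the 4. In the wild-type library of day 14 Vwf stood at 1411 CPM and Tek at 469 CPM, above their levels in all 4.

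Genes lower on day 14 differed among themselves on day 6. Cebpa stood at 164 and 234 CPM on day 6 (log2 ratio 0.51), against -2.96 on day 14. Gatm (1.38) and Timp2 (1.58) were past the rule higher on day 6 and past it lower on day 14. Klf2 (-1.56 on day 6), Ier5 (-1.26), Zfp36l2 (-1.40) and Jund (-1.51) were lower on both days, while Fos, Egr1 and Jun, with ratios of -1.35, -1.39 and -1.40 on day 6, were under the rule on day 14. The homeostatic genes were under the rule for most members on both days, with 5 of 23 lower on day 6 and 1 of 25 on day 14.

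**Figure D5:**
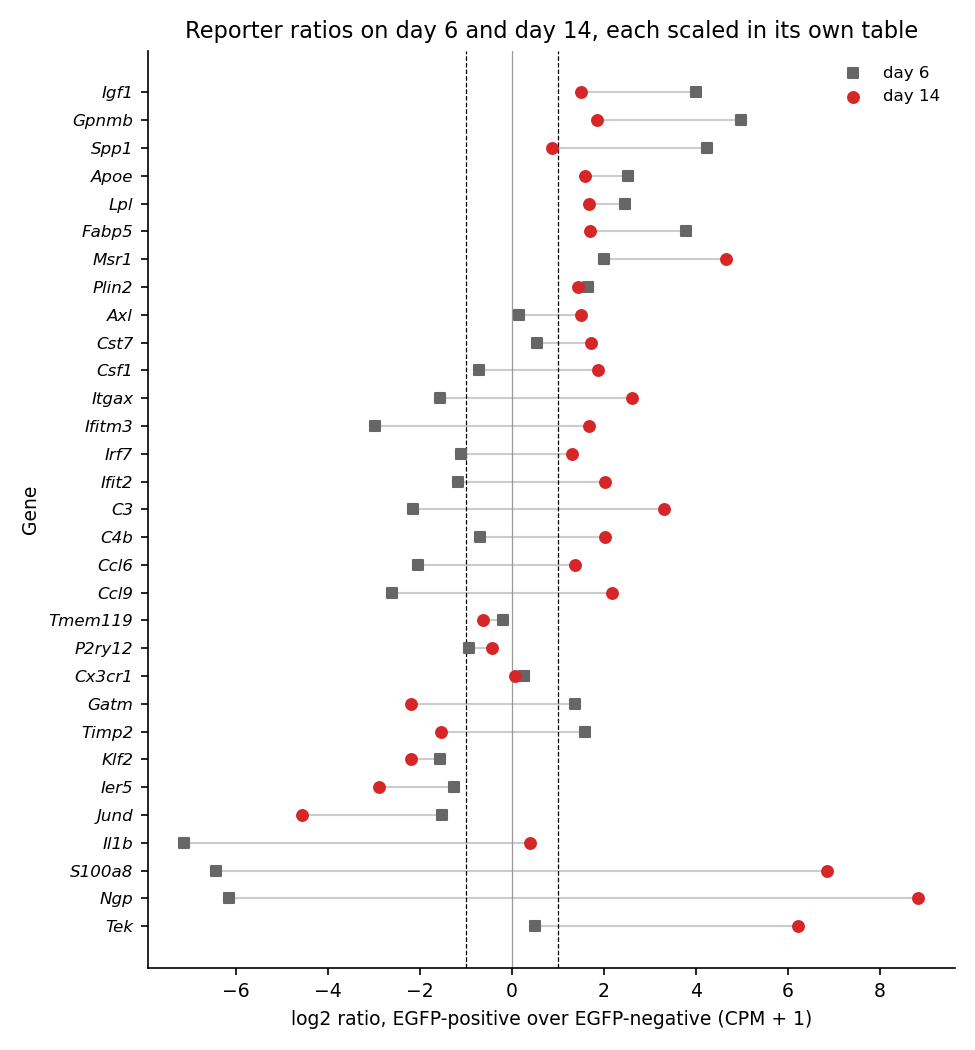
Log2 ratios, EGFP-positive over EGFP-negative (horizontal axis, CPM plus 1), on day 6 (squares) and day 14 (circles) for 31 genes of the lists (rows), each day scaled in its own table, with 1 library per state and day. Igf1, Gpnmb and Apoe lie right of 0 on both days, while Ifitm3, C3, S100a8 and Ngp lie left of it on day 6 and right of it on day 14.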

How the data were processed

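Whole read counts per gene, as deposited by the authors with no normalization, were used for both reporter tables, and expected counts, as deposited with fractions and rounded here, for the Yy1 table. STAR, featureCounts and edgeR are listed in the submitters' processing notes, beside mm10 and GRCm38, and roles, versions, annotation and strand setting are not given in the sources used here, so antisense and overlapping genes cannot be separated. Libraries were made from column-purified RNA (Ovation SoLo kit), and the day 14 reporter pair ran on a NovaSeq, the others on a HiSeq, per the labels. Groups come from sample titles, and 0 columns were left unused. Date-like names, carried by 27 genes, were kept in totals and never named.

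Each table was scaled on its own by TMM (edgeR 4.0.16, R 4.3.3), and log2 ratios used CPM plus 1 CPM. Fold intervals were exact conditional binomial (Clopper-Pearson, 95%, SciPy 1.17.1), cover counting error only and treat reads as independent. A library at 0 was set to 3 fragments, 6 counts, for lower bounds. No p-value was computed with 1 library per state. Ratios and intervals were tested on simulated data. Alternatives were other scaling, pseudocounts, level filters and a larger ratio.

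The comparison, the 36 gene lists and the naming rule were chosen with earlier results of these data known. Named by rule were 13 fixed genes, the 15 highest and 15 lowest ratios with at least 10 counts in both libraries, the 6 genes of highest level with 0 counts in the other library, each way, and up to 6 members of each list past the size rule by ratio, with the leading members of each marker list. Listed genes named beyond that, under the size rule or past it with smaller ratios (among them Ctsd, Trem2, Ifitm3, Irf7, Usp18, Mmp14, Scarb1, Adam17, Fos, Egr1 and Ccr2), and Xist were chosen after their values were seen. Coordinates are from GENCODE M21 on GRCm38, and promoters from RefSeq on GRCm38.p6. The results of a few genes picked by this rule or by the lists are not reported here.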

Additional observations from a re-analysis of the deposited data

Results flagged for a closer look

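Of the genes named, 30 were past the size rule in opposite directions on the 2 days, and they are given as log2 ratios, EGFP-positive over EGFP-negative, on day 14 and then on day 6. That number depends on which genes were named, some of them after their values were seen. Over all 5646 genes that reached 20 CPM on both days, 77 of the 595 higher on day 14 were lower on day 6 (12.9%, against 9.03% of all 5646), and 28 of the 530 lower on day 14 were higher on day 6 (5.28%, against 6.43%). Interferon-stimulated genes named were Ifitm3 (1.68 and -2.97), Ifitm2 (1.53 and -1.72), Irf7 (1.30 and -1.11), Ifit2 (2.03 and -1.17), Oas2 (1.76 and -1.42), Oas3 (4.61 and -2.43), Oasl1 (4.92 and -3.31), Mx1 (2.62 and -2.25) and Usp18 (1.28 and -1.05). Neutrophil and monocyte genes were Ngp (8.83 and -6.15), Ltf (7.84 and -6.61), S100a8 (6.86 and -6.42), S100a9 (7.11 and -7.54), Camp (6.16 and -5.19), Chil3 (7.29 and -2.94) and Anxa1 (6.04 and -2.88). Surface, complement and chemokine genes were Itgax (2.62 and -1.56), Cd52 (1.55 and -1.21), C3 (3.30 and -2.14), Ccl6 (1.37 and -2.05), Ccl9 (2.18 and -2.62) and Plaur (1.17 and -1.70). Class II genes were H2-Ab1 (1.82 and -4.05) and H2-Aa (1.43 and -4.14). Among transcription factor genes were Nr4a1 (2.02 and -2.64) and Bhlhe40 (2.47 and -1.30). In the other order, lower on day 14 and higher on day 6, were Timp2 (-1.54 and 1.58), Gatm (-2.20 and 1.38), Itgav (-1.89 and 1.20) and Lamp1 (-1.02 and 1.47). With 1 library per state and day, the difference between the days was not tested, and day cannot be told apart from table, sequencer and the sex-linked transcripts.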

How the results depend on the processing

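The counts of genes past the size rule depended on the level filter and the size asked for. With at least 5 CPM 1612 genes were higher and 1285 lower, with at least 50 CPM 327 and 338, with at least 100 CPM 109 and 133, and with at least 300 CPM, a setting added after seeing the data, 15 and 17. With a log2 ratio of at least 2 they were 257 and 203. The other scalings and pseudocounts and a minimum of 10 counts in both libraries kept both counts within 1.5 times. Scaling by total counts gave 671 higher and 921 lower, so that 42.1% of the genes past the rule were higher against 50.7%. The log2 ratio of Igf1 was 1.26 with a pseudocount of 5 CPM. No named gene past the rule changed sign under the other scalings and pseudocounts. Of 183 genes picked for this report, not all of them named above, 125 were past the rule. Of these 125, scaling by total counts took out 5 (Bst2, Tpi1, Hif1a, Rpsa and Fcgr4). A pseudocount of 5 CPM took out 5 (Zfp384, Bst2, Hif1a, Lamp1 and Fcgr4). At 20 to 50 CPM replicates of the Yy1flox/flox group passed the size rule in 7.74% to 9.93% of genes and those of the Cx3cr1-CreER;Yy1flox/flox group in 26.0% to 33.4%, against 30.4% here, and how far depth sets these shares was not tested. No paired analysis was possible because each reporter state has 1 library and the comparison comes from no test.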
